A study of Mus musculus with 15 samples.

Results

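The transcripts of 10 genes were followed through single-cell RNA sequencing of mouse testis: the long protein-coding genes Fgf14, Schip1, Pcdh9, Ttn, Agbl1, Zfp804b, Cnbd1 and Chst9, and the nuclear long noncoding RNAs Malat1 and Neat1. They are 10 of the 32285 genes in the count matrices, and all 10 were found by symbol. They were chosen by their measured levels, which were high in spermatids with few unique molecular identifiers (UMIs, the counted RNA molecules), cells that were frequent in the recovery group. Their levels by UMI depth in spermatids, and their levels in the spermatids of the recovery group, are therefore given as a description without a test.

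DBA/2J males received JQ1, a small molecule that occupies the bromodomains of BRDT and its relatives, by intraperitoneal injection at 50 mg/kg daily for 3 wk, or vehicle. Testes were taken at once at 10 wk of age (treatment, T, and vehicle, VC-T) or 6 wk after the last dose at 16 wk of age (recovery, R, and vehicle, VC-R). Untreated mice (UC) were 15 wk old, and each of the 5 groups had 3 mice with 1 library each, so p-values between groups rest on the spread between animals. Cells with few and with more UMIs were compared within each library, and those p-values rest on how that difference varied over the libraries. The comparisons ask whether these transcripts change under JQ1 and whether they differ from untreated testis after withdrawal. T and R share UC as control, and age and group cannot be told apart in either comparison with it.

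Spermatids are haploid cells that transcribe actively after meiosis and then silence their genome as the nucleus condenses. A gene that spans a large stretch of a chromosome yields a long precursor RNA, mostly intron, that is spliced in the nucleus before the mature messenger RNA moves to the cytoplasm. Malat1 stays in nuclear speckles, where splicing factors gather, and Neat1 builds paraspeckles, nuclear bodies that hold RNA-binding proteins.

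Library totals ran from 9673587 to 98724982 UMIs, and the 3 R libraries were the deepest, with at least 40582759 UMIs against at most 28341295 elsewhere. Of 101610 barcodes, 72362 passed the filters, between 2430 and 12744 in a library. Among 71699 distinct barcodes kept, 663 (0.925%) occurred in more than 1 library. By their markers, 19501 cells in 7 clusters were spermatid-like, 15678 cells in 8 clusters were spermatocyte-like and 23653 cells were spermatozoa-like, while 6529 cells in 3 clusters stayed unnamed. Spermatozoa-like cells numbered 1, 1 and 3 in the T libraries and 0 in VC-T 1, against 954 and 1541 in VC-T 2 and VC-T 3. In this respect VC-T 1 went against its vehicle label. The study set this library aside as a technical outlier in its tests of differential expression. Tests between groups that use it are given here with and without it.

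The protein-coding genes share length. From the start to the end of the annotated gene they cover 262 to 895 kb (GRCm38/mm10), with a median of 569 kb, where the median over 32235 genes with a position is 12.3 kb and 3.34% exceed 200 kb. Exons make up 0.508% to 0.908% of the span in each of them except Ttn, where they make up 41.9%. Agbl1 covers 895 kb (chromosome 7, 76229887 to 77124698, plus strand), Pcdh9 877 kb (chromosome 14, 93013410 to 93890679, minus strand) and Fgf14 699 kb (chromosome 14, 123977907 to 124677127, minus strand). Schip1 (chromosome 3, 68064802 to 68626481, plus strand) overlaps Iqschfp on its own strand, so its UMIs may be divided between these genes. Cnbd1 (chromosome 4, 18860454 to 19122526, minus strand) is overlapped by Gm11867 on the other strand. Malat1 and Neat1 lie on chromosome 19 (5795690 to 5802672 and 5824708 to 5845478, both minus strand) and are annotated as exon throughout, over 6.98 and 20.8 kb. Whether reads in introns were counted is not given in the sources used here. The matrix headers name Cell Ranger 7.0.0, which counts them unless told otherwise, so the levels of the long genes may include unspliced precursor, and precursor and mature RNA cannot be told apart.

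The 250 bases upstream of a RefSeq start (GRCm38.p6) are shown for the genes that led in each group of low-UMI spermatids described below, so that the start regions of genes with different patterns can be compared. Capitals mark TGACG on either strand, the core of the cAMP response element, which CREM binds in spermatids.
Fgf14, chr14:124192547-124192796, minus strand: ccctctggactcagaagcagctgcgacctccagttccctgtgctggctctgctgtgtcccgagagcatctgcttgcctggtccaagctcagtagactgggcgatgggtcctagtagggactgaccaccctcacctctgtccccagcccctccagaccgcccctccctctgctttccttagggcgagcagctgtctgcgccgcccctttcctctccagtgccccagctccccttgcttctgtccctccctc
Pcdh9, chr14:93890680-93890929, minus strand: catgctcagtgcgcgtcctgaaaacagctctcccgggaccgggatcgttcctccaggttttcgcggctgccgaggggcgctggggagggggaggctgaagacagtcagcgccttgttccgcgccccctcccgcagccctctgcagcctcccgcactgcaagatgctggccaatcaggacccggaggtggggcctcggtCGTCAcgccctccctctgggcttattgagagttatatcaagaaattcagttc
Schip1, chr3:68064552-68064801, plus strand: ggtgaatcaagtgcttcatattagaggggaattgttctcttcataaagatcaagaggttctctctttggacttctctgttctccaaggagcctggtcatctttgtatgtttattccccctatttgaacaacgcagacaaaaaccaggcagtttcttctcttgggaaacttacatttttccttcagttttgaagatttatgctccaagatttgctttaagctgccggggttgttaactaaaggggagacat
Malat1, chr19:5802673-5802922, minus strand: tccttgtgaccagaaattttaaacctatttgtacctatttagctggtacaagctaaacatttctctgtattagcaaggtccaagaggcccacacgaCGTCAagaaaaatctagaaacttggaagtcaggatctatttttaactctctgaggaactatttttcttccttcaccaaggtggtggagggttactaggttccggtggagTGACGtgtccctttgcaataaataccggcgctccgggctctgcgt
RefSeq windows were found for Fgf14, Schip1, Pcdh9, Ttn, Agbl1, Zfp804b and Malat1, 10 windows in all since some genes have several starts, and none was found for Cnbd1, Chst9 and Neat1. TGACG was in 3 of the 10 windows, of which 2 are overlapping windows of Pcdh9 and 1 is that of Malat1, and in 17.8% of 32851 windows of all genes. The full element TGACGTCA, which contains TGACG, was in 0 of the 10 windows and in 1.55% of all windows. The TATA box TATAAA was in 0 of the 10 windows and in 12.4% of all, the GC box GGGCGG in 2 of the 10 and 32.7% of all, and the MYB motif AACNG in 8 of the 10 and 74.2% of all. Each was searched on both strands, and these matches are descriptions. The libraries read the 3′ end of transcripts and do not show which start was used.

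Levels are given as CPM, the UMIs of a gene for every 1000000 UMIs of the same cells. The libraries read the 3′ end of transcripts, so levels were not scaled by length, and they are compared between cells and not between genes. If reads in introns were counted, the levels of long genes may still depend on length. In a cluster, the UMIs of all its cells were summed, and ranges are over the libraries with at least 10 cells in it.

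The spermatid-like cells with few UMIs fell into 3 clusters with a median under 2000 UMIs per cell, and the 10 genes did not lead in the same cluster. Cluster 11 (2858 cells, median 1605 UMIs) had high Fgf14, Ttn and Cnbd1. Cluster 16 (2142 cells, 1678 UMIs) had high Pcdh9, Agbl1, Zfp804b, Chst9 and Malat1, and cluster 19 (1821 cells, 1471 UMIs) had high Schip1 and Malat1. Clusters 11, 16 and 19 held 77.6%, 71.4% and 83.9% cells from R. The R libraries supplied 6648, 7308 and 12744 of all 72362 cells kept, and such shares are to be read against these numbers. The mitochondrial share was 3.56% in cluster 11 against 0.134% and 0.117% in clusters 16 and 19. It was 0.364% in cluster 15 and 0.0151% in cluster 18, the clusters they are compared with below, so each low-UMI cluster had a higher mitochondrial share than its match, and the part of this in the levels was not tested. The 10 genes were left out of the clustering. They were chosen for high levels in such cells, so differences between clusters are a description.

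Each low-UMI cluster was matched to the cluster it resembled most in 4068 genes shorter than 20 kb. Only the spermatid-like clusters 2, 4, 15 and 18 were candidates. The markers below also gave the clusters their names, so neither comparison tests the spermatid label. Cluster 11 was closest to cluster 15 (Spearman rho 0.863, median 5302 UMIs), cluster 16 to cluster 18 (0.836, 8106 UMIs) and cluster 19 also to cluster 18 (0.888). The 6 spermatid markers summed to 2397 CPM in cluster 11 and 2583 in cluster 15, and to 3770 and 2108 CPM in clusters 16 and 19 against 2631 in cluster 18. Each low-UMI cluster and its match also differed in markers of other stages. In cluster 16 the 7 spermatocyte markers stood at 625 against 139 CPM and the 5 spermatozoa markers at 4250 against 8180 CPM. In cluster 19 they stood at 369 against 139 CPM and 5409 against 8180 CPM, and in cluster 11 at 893 against 744 CPM and 3802 against 2621 CPM. The 8 Sertoli cell markers were higher in each low-UMI cluster than in its match, at 149 against 21.6 CPM, 116 against 41.6 CPM and 279 against 41.6 CPM, and their part in the results was not tested. The 5 Leydig cell markers summed to 10.6 to 12.4 CPM in the 3 low-UMI clusters, and the 5 macrophage markers to 5.69 to 18.3 CPM.

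**Figure D1:**
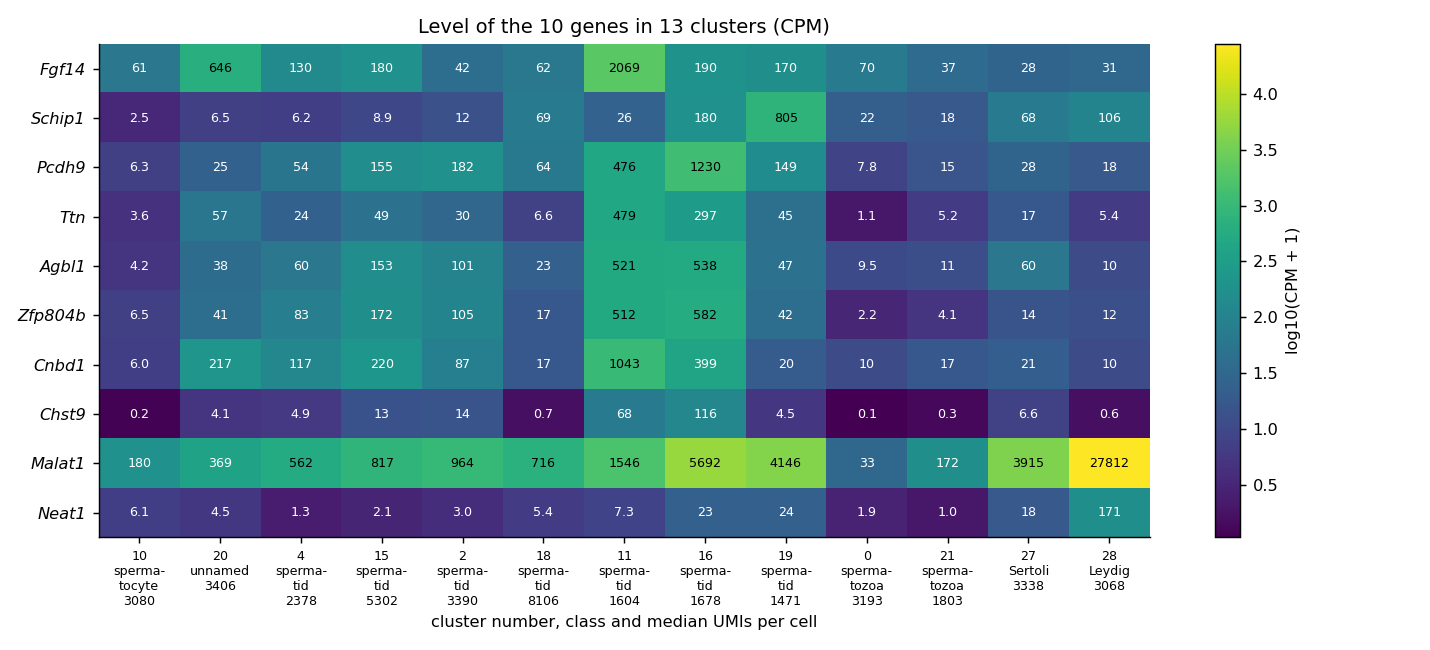
Level of each of the 10 genes in 13 clusters, as CPM written in the cell and coloured by log10(CPM + 1); the x axis gives the cluster number, its class without the word like, and its median UMIs per cell. Clusters 11, 16 and 19 are the low-UMI spermatid-like clusters. Fgf14 stands at 2069 CPM in cluster 11, Pcdh9 at 1230 CPM in cluster 16 and Schip1 at 805 CPM in cluster 19.

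Fgf14 encodes a fibroblast growth factor homologue that stays inside the cell and modulates voltage-gated sodium channels. Its level was 2069 CPM in cluster 11, with 1377 to 3150 CPM over 14 libraries, and 180 CPM in the matched cluster 15, with 105 to 270 CPM over 15 libraries. These ranges did not overlap, and the pooled level was 11.5-fold higher. Cluster 11 cells also held more Fgf14 UMIs each, 4.07 against 1.41 in cluster 15, although they had fewer UMIs in all. These UMIs per cell were pooled over libraries of different depth. Cells from R, the deepest libraries, made up 77.6% of cluster 11 and 19.1% of cluster 15, and the part of this was not tested. In clusters 16 and 19 Fgf14 was at 190 and 170 CPM. Outside the spermatid-like cells it was highest in the unnamed cluster 20, at 646 CPM, and in the spermatocyte-like cluster 23, at 331 CPM. Over all cells of a class the median library had 156 CPM in spermatocyte-like, 138 CPM in spermatid-like and 70.5 CPM in spermatozoa-like cells, and the range of spermatid-like libraries, 76.4 to 428 CPM, enclosed that of spermatocyte-like libraries, 124 to 198 CPM.

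Ttn, the giant spring protein of the muscle sarcomere, and Cnbd1, a protein with a cyclic nucleotide binding domain, also led in cluster 11. Ttn stood at 479 CPM there, with 126 to 541 CPM over 14 libraries, and at 49.3 CPM in cluster 15, with 22.2 to 69.7 CPM. Cnbd1 stood at 1043 CPM, with 953 to 1602 CPM over libraries, against 220 CPM in cluster 15. Both differences, 9.73-fold for Ttn and 4.74-fold for Cnbd1, went with more UMIs per cell in cluster 11, 0.943 against 0.387 for Ttn and 2.05 against 1.73 for Cnbd1. These UMIs per cell were likewise pooled over libraries of different depth. The leading genes of cluster 11 by fold over the other clusters included Ttn itself, Xirp2, another gene of muscle, and Gm11867, which overlaps Cnbd1 on the opposite strand.

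Pcdh9, a protocadherin of cell adhesion, was highest in cluster 16, at 1230 CPM, with 759 to 1387 CPM over 14 libraries. It was at 64.0 CPM in cluster 18 (51.8 to 105 CPM over 13 libraries) and at 182 CPM in cluster 2, the highest spermatid-like cluster that was not low in UMIs. A cell of cluster 16 held 2.60 Pcdh9 UMIs on average and a cell of cluster 18 held 0.772. Agbl1, a relative of the cytosolic carboxypeptidases that trim glutamate from tubulin, and Zfp804b, a zinc finger protein, were nearly as high in cluster 11 as in cluster 16. Agbl1 stood at 521 and 538 CPM and Zfp804b at 512 and 582 CPM, with ranges over libraries that overlapped between these clusters for both genes. Chst9, which adds sulfate to N-acetylgalactosamine on glycoproteins, was at 116 CPM in cluster 16 and 68.3 CPM in cluster 11. In cluster 18 only 15 Chst9 UMIs were counted.

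Schip1, which binds the tumour suppressor schwannomin, differed from the other long genes. It was at 805 CPM in cluster 19, with 45.9 to 963 CPM over 11 libraries, at 180 CPM in cluster 16 and at 25.8 CPM in cluster 11. In cluster 18 it was at 69.3 CPM, with 17.0 to 99.7 CPM over 13 libraries. The low value of 45.9 CPM in cluster 19 came from T 1, which had 15 cells there, and the next lowest library, VC-T 3, had 380 CPM. The leading genes of cluster 19 included Schip1, the potassium channel gene Kcnb2 and the adhesion gene Lsamp. Leydig-like cells also held Schip1, at 106 CPM.

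Malat1 was highest in Leydig-like cells, at 27812 CPM, so it marked no spermatid group alone. Within the spermatid-like cells it was at 5692 CPM in cluster 16 (4204 to 7082 CPM over 14 libraries), 4146 CPM in cluster 19 (2796 to 5628 CPM over 11 libraries) and 1546 CPM in cluster 11 (1176 to 3026 CPM over 14 libraries). The highest other spermatid-like cluster was cluster 2, at 964 CPM. Spermatozoa-like libraries had 51.7 to 101 CPM of Malat1, below every spermatocyte-like library, at 504 to 831 CPM. Neat1 stood at 171 CPM in Leydig-like and 123 CPM in macrophage-like cells. In the 3 low-UMI clusters it stood at 7.29 CPM in cluster 11, 23.4 CPM in cluster 16 and 23.7 CPM in cluster 19, from 41, 106 and 74 UMIs.

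All 10 genes had a higher CPM in each low-UMI cluster than in its closest match, by 1.89- to 11.5-fold in cluster 11, by 2.59- to 173-fold in cluster 16 and by 1.18- to 11.6-fold in cluster 19. They were chosen for high levels in such cells, and many other genes also stood higher there. A log2 ratio over 1 was found for 42.0%, 44.1% and 43.2% of all genes, and for 9, 10 and 9 of the 10. The 173-fold is that of Chst9 over its 15 UMIs in cluster 18. These folds depend on the cluster chosen for comparison. Against cluster 2, which correlated with cluster 16 at 0.802, the 10 genes were 4.51- to 14.8-fold higher in cluster 16, with Chst9 at 8.13-fold and Pcdh9 at 6.75-fold. Cluster 19 was below cluster 2 for Cnbd1 (0.228-fold), Chst9 (0.315), Zfp804b (0.396), Agbl1 (0.461) and Pcdh9 (0.819), and above it for Schip1 (66.2-fold), Neat1 (7.84), Malat1 (4.30), Fgf14 (4.05) and Ttn (1.54). UMIs per cell gave another count. They were higher in the low-UMI cluster for 4 of the 10 genes in cluster 11, for 7 in cluster 16 and for 1, Schip1, in cluster 19, while the remaining genes made up a larger share of fewer UMIs. UMIs per cell were pooled over libraries, and each low-UMI cluster held a larger share of cells from R, the deepest libraries, than its match. Fewer molecules of other genes and more molecules of these genes cannot be told apart by CPM alone.

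Levels in R and UC libraries within these clusters are given for Fgf14 and Pcdh9 only, as a description without a test. Fgf14 in cluster 11 was at 2203, 2065 and 2024 CPM in R 1, R 2 and R 3 and at 2818, 2412 and 2296 CPM in UC 1, UC 2 and UC 3, so every R library lay below every UC library. Pcdh9 in cluster 16 was at 1325, 1290 and 1241 CPM in the R libraries and at 1387, 959 and 1105 CPM in the UC libraries, which overlap. The UC values rest on 20 to 65 cells of cluster 11 and 18 to 52 cells of cluster 16, and those of R on 500 to 1197 and 343 to 757 cells.

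The share of spermatid-like cells that lay in the 3 clusters differed between libraries. It was 74.5%, 66.9% and 83.3% in R and 11.1%, 10.0% and 18.6% in UC. VC-R had 22.0%, 15.0% and 1.79%, and T had 5.97%, 5.41% and 8.26%. In VC-T the shares were 2.33%, 61.9% and 7.79%, so VC-T 2 lay near R and the other VC-T libraries did not. VC-T 1 had many shallow spermatid-like cells, 59.8% under 2000 UMIs, but only 3.15% of those lay in the 3 clusters, against 97.5%, 94.8% and 93.9% in the R libraries.

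Over all spermatid-like cells the 10 genes were 1.75- to 3.78-fold higher in R than in UC as means of 3 libraries, and 0.949- to 1.45-fold without the 3 clusters. Fgf14 was at 334, 306 and 428 CPM in R against 116, 93.5 and 143 CPM in UC, groups that did not overlap. Without the 3 clusters the values were 91.7, 105 and 87.5 CPM in R and 80.1, 71.8 and 91.4 CPM in UC, which overlap. Cells of the 3 clusters supplied 73.6% to 87.3% of Fgf14 UMIs in the R libraries and 80.5% in VC-T 2.

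Schip1 was at 118, 106 and 116 CPM in R and at 35.0, 44.6 and 41.8 CPM in UC, and at 38.9, 33.6 and 37.4 CPM in R and 27.1, 40.4 and 30.7 CPM in UC without the 3 clusters. Pcdh9 was at 270, 239 and 321 CPM in R and 126, 105 and 141 CPM in UC, and at 114, 131 and 121 CPM against 109, 95.5 and 108 CPM without them. Malat1 was at 1810, 1400 and 1704 CPM in R and 911, 880 and 1021 CPM in UC, and at 807, 738 and 777 CPM against 819, 791 and 836 CPM without them. Every R library lay above every UC library for these genes over all cells. Without the 3 clusters the groups overlapped for Schip1 and Malat1, while Pcdh9 stayed higher in every R library than in every UC library.

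**Figure D2:**
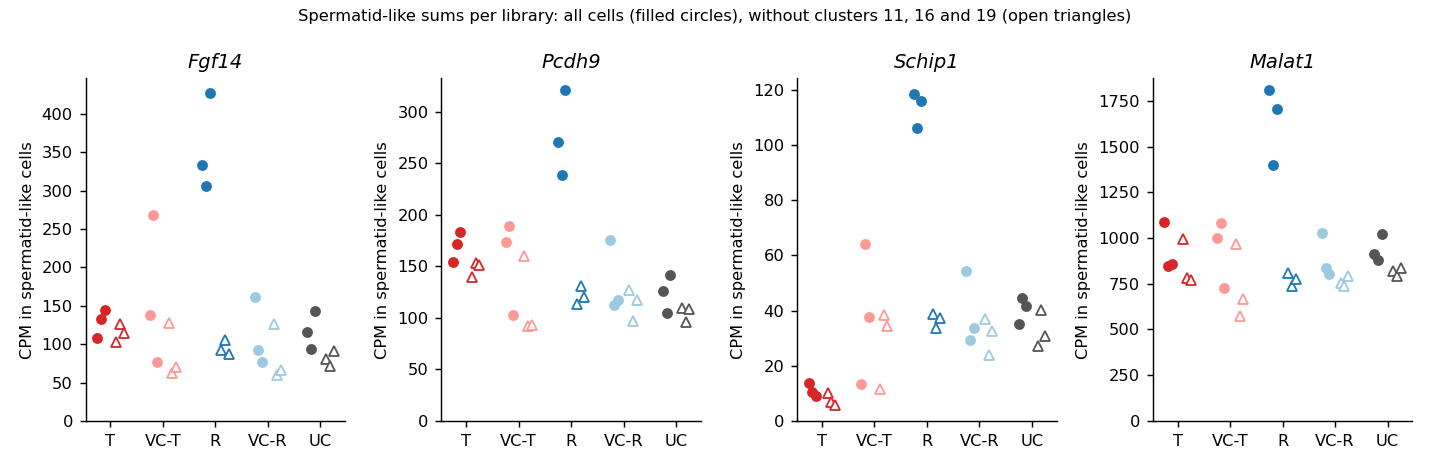
CPM of Fgf14, Pcdh9, Schip1 and Malat1 in the summed spermatid-like cells of each library, by group on the x axis; filled circles are all cells and open triangles the same library without clusters 11, 16 and 19. The filled circles of R stand above those of UC in all 4 panels, and the triangles of R fall to between 87.5 and 105 CPM for Fgf14, beside 71.8 to 91.4 CPM in UC.

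By UMI depth alone, without clusters, the picture was similar but uneven. In shallow spermatid-like cells, those from 1000 to under 2000 UMIs, Fgf14 ranged from 139 CPM in VC-T 1 to 1271 CPM in VC-T 2, with a median of 627 CPM over 15 libraries. In deeper cells, from 4000 to under 8000 UMIs, the median was 112 CPM, and Fgf14 was higher in the shallow cells of 14 of 15 libraries. The exception was VC-T 1, at 0.996-fold. R 3, the most deeply sequenced library, had 863 CPM of Fgf14 and 4228 CPM of Malat1 in its deeper cells, and each of the 9 genes other than Fgf14 was lower in its shallow than in its deeper cells. The cells of the 3 clusters had a median of 2024 UMIs in R 3 and of 1212 to 1422 UMIs in the other libraries.

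The other genes followed the same order of depth in most libraries other than R 3. Shallow cells were higher in 14 of 15 libraries for Schip1, Ttn and Malat1, in 13 for Pcdh9, Agbl1, Zfp804b and Cnbd1, in 12 for Chst9 and in 10 for Neat1. The median fold over libraries was 3.62 for Schip1, 3.86 for Ttn, 2.78 for Pcdh9, 2.46 for Cnbd1 and 2.20 for Malat1. When each cell was thinned to 1000 UMIs, 27.1% of the shallow and 11.1% of the deeper spermatid-like cells had a Fgf14 UMI. Without thinning the shares were 31.7% and 35.6%. In somatic classes the thinned shares were lower, with 4.37% of 2754 shallow and 3.13% of 194 deeper Sertoli-like cells, 6.19% of 139 and 5.01% of 44 macrophage-like cells, and 1.67% of 117 and 3.44% of 71 Leydig-like cells.

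**Figure D3:**
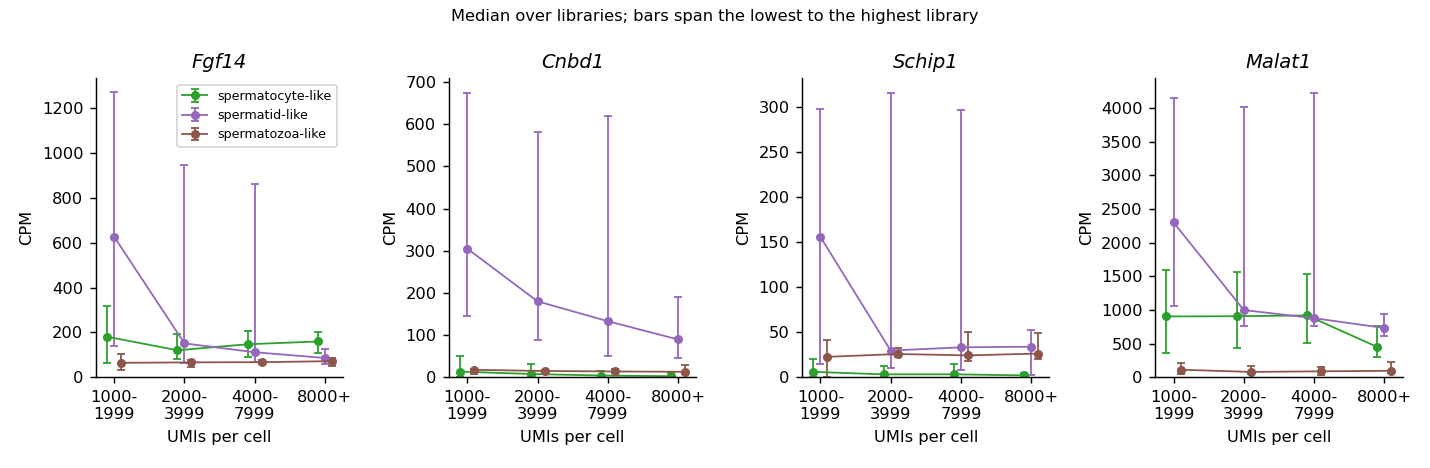
CPM of Fgf14, Cnbd1, Schip1 and Malat1 by UMIs per cell in cells called spermatocyte-like, spermatid-like or spermatozoa-like; points are medians over libraries and bars run from the lowest to the highest library. In spermatid-like cells the Fgf14 median is 627 CPM from 1000 to under 2000 UMIs and 112 CPM from 4000 to under 8000, while spermatozoa-like cells stay at 64.5 and 67.4 CPM.

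In spermatozoa-like cells, which follow spermatids, the levels of Fgf14, Schip1 and Pcdh9 lay close together in shallow and deeper cells. Over 11 libraries the median of Fgf14 was 64.5 CPM in the shallow and 67.4 CPM in the deeper cells, that of Schip1 22.7 and 24.3 CPM and that of Pcdh9 12.1 and 11.1 CPM. Fgf14 was higher in the shallow cells of 6 of the 11 libraries, Schip1 in 4 and Pcdh9 in 3. Other long genes were more often higher in the shallow cells, at low levels. Ttn was higher in 7 of 11 libraries, at medians of 6.77 and 2.19 CPM, and Agbl1 in 7, at 12.96 and 9.84 CPM. Zfp804b was higher in 8 of 11, at 4.32 and 3.61 CPM, and Cnbd1 in 8, at 17.8 and 13.8 CPM.

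Long genes outside the 10 were also higher in the low-UMI clusters. With the 10 genes left out, the median log2 ratio of cluster 11 to cluster 15 rose from 0.078 in 4796 genes under 10 kb through 0.67, 1.25 and 1.66 to 1.90 in 221 genes over 500 kb. In cluster 16 against cluster 18 it rose from 0.13 to 2.68, and in cluster 19 against cluster 18 from 0.30 to 1.50. Fgf14, Ttn, Cnbd1 and Pcdh9 stood among many long genes that were higher in these cells. In shallow over deeper cells, the ratio rose from 0.086 to 1.12 in spermatid-like cells, from 0.21 to 0.51 in spermatocyte-like cells, and went from 0.15 to 0.13 in spermatozoa-like cells. Genes are not independent replicates, and these medians are descriptions.

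**Figure D4:**
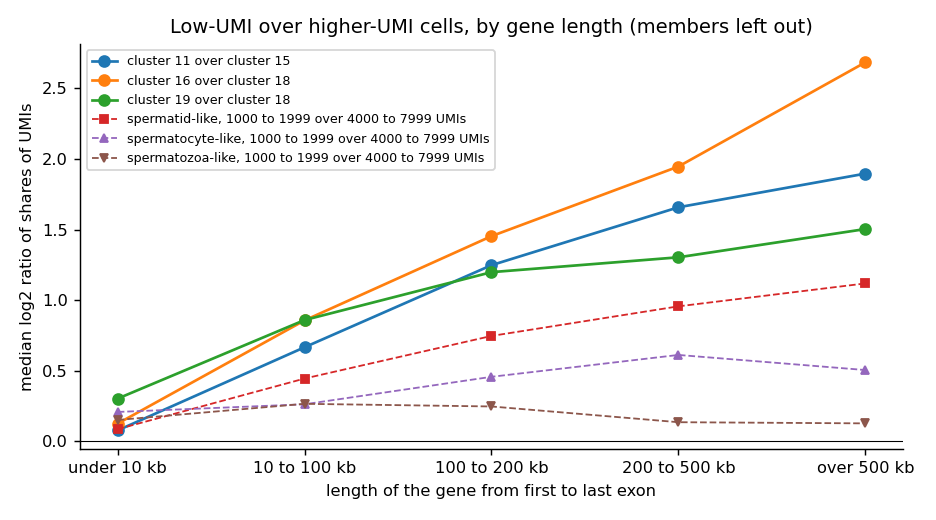
Median log2 ratio of shares of UMIs in low-UMI over higher-UMI cells (y axis) by length of the gene from start to end (x axis), with the 10 genes left out; solid lines are the 3 low-UMI spermatid-like clusters over their matched clusters and dashed lines are cells from 1000 to under 2000 over cells from 4000 to under 8000 UMIs in 3 classes. The solid lines climb from 0.078, 0.13 and 0.30 under 10 kb to 1.90, 2.68 and 1.50 over 500 kb, and the spermatozoa-like line stays between 0.13 and 0.27.

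Genes over 500 kb made up a median of 1.94% of the UMIs of shallow spermatid-like cells (0.860% to 2.82% over 15 libraries) and 0.743% of those of deeper cells (0.654% to 3.36%). A list of 38 other very long genes, such as Dmd, Csmd1 and Lrp1b, had a median log2 ratio of 1.84 in cluster 11, 2.54 in cluster 16 and 1.55 in cluster 19, where all genes had 0.68, 0.77 and 0.75. Of the 12 spermatid transcripts known from the cytoplasm, such as Acrv1 of the acrosome and Ldhc of glycolysis, the medians were -0.026, -0.40 and -0.45. Acrv1, Tex36, Lyzl6, Izumo1 and Spaca7 of this list are also spermatid markers that named the clusters. Their ratios are therefore not independent of that naming. Proteins of paraspeckles and speckles, the partners of Neat1 and Malat1, had 0.29 in cluster 11 and 1.40 and 1.33 in clusters 16 and 19. Relatives of the 10 genes' families had 1.32, 1.35 and 1.56.

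The genes most like the 8 long ones were sought by Spearman correlation with their mean over 280 sums, among 10148 genes. Each sum held the cells of a single library, cell class and range of UMIs per cell. The sums share libraries and depth. The closest were the noncoding genes Gm48051 (rho 0.845), 4930434J06Rik and Gm27211, and among protein-coding genes Sez6l (0.837), Fer1l5 (0.832) and Fbxl13 (0.832). Gm48051 spans 4.26 kb, so a gene like the long ones in pattern was not always long. Malat1 was most like Erbin (0.857), Exoc6b, Tcf12, Zcchc7 and Zbtb20, and Neat1 was most like Prkce (0.588), Pde10a, Tcf4 and Rnf144b. Between members, Zfp804b and Cnbd1 were closest (0.767), and Fgf14 with Schip1 gave -0.042.

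Spermatocyte-like cells, which the choice of the genes did not use, allowed tests over libraries. UMIs were summed per library, and edgeR's quasi-likelihood test called a gene when the adjusted p was below 0.05 and its log2 fold change was beyond 1 in size. Between shallow and deeper cells, 6 of the 10 genes passed the filter on low counts, 2 were called higher in the shallow cells and 0 lower, where 10.4% of 9298 genes were called higher and 0.409% lower. Cnbd1 had a log2 fold change of 1.77 (SE 0.39, adjusted p = 0.00224 in edgeR), and its level ranged from 0 to 50.1 CPM in shallow cells (median 13.5) and from 0 to 14.7 CPM in deeper cells (median 4.17). Zfp804b had 1.50 (SE 0.40, adjusted p = 0.00775 in edgeR), with medians of 11.2 and 4.25 CPM. Both were higher in the shallow cells of 12 of 15 libraries, and the ranges overlapped.

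Neither call held in every subset. Of the shallow spermatocyte-like cells 24.0% were of cluster 23, against 0.792% of the deeper cells, and the 6 spermatid markers summed to a median of 330 CPM in shallow and 129 CPM in deeper cells. Compared within clusters, or without the 3 R libraries and VC-T 1, Cnbd1 and Zfp804b did not pass the filter on low counts and 0 of 2 and 0 of 3 genes tested were called, and with 2000 to under 4000 UMIs as the shallow cells 0 of 5 were called. Over all genes, edgeR called 371 of 6322, 739 of 8214 and 116 of 10264 higher in these 3 comparisons, and 15, 50 and 1 lower. At an unadjusted p below 0.05 edgeR found 2681, 3127 and 3303 genes in these 3 comparisons, and DESeq2 was not run on them. The part of cluster 23 and of the spermatid transcripts was not tested. Fgf14 had a log2 fold change of 0.11 (SE 0.19), Pcdh9 0.65 (SE 0.36), Ttn 0.78 (SE 0.52) and Malat1 -0.24 (SE 0.18), and none of these 4 was called.

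The list of other very long genes had 3 of 22 tested called higher in shallow spermatocyte-like cells, Auts2 (2.61), Kcnip4 (1.65) and Sox5 (1.13), and a median log2 fold change of 0.30, a share to be read against the 10.4% of all genes called higher. The cytoplasmic spermatid transcripts had 6 of 12 called higher, among them Tex36 (1.73) and Lyzl6 (1.61), and a median of 1.00, where all genes had 0.0018. Tex36 and Lyzl6 are among the spermatid markers summed above, so this count partly repeats that sum. None of the 17 speckle and paraspeckle proteins and none of the 8 family relatives tested was called.

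The share of spermatocyte-like cells under 2000 UMIs averaged 19.7% ± 6.20 (SD, n = 3) for the R libraries. The untreated and VC-R libraries together averaged 17.5% ± 4.86 (SD, n = 6), a difference that did not exceed the spread (p = 0.786, exact two-sided permutation test). In T it was 15.4% ± 11.5 (SD, n = 3) and in UC and VC-T 19.4% ± 4.61 (SD, n = 6; p = 0.476, exact two-sided permutation test). The smallest p that 3 against 6 libraries allow is 0.0238. Without VC-T 1 the controls of T averaged 20.5% ± 4.10 (SD, n = 5; p = 0.429, exact two-sided permutation test). A difference in the share of shallow spermatocyte-like cells was not detectable between these groups. Clusters low in UMIs and mostly from R were nevertheless found in other classes. The spermatocyte-like cluster 23 had a median of 1560 UMIs and 68.4% of its cells from R, the Sertoli-like cluster 7 had 1374 UMIs and 83.6%, and the spermatozoa-like cluster 21 had 1803 UMIs and 92.0%. These shares are also to be read against the large number of cells kept from R.

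Levels in spermatocyte-like cells did not differ measurably between R and UC. Of the 10 genes 9 were tested and 0 were called by edgeR or DESeq2, where 0% of 13635 genes were called higher and 0% lower. At an unadjusted p under 0.05 there were 1095 genes with edgeR and 922 with DESeq2. The log2 fold changes of the 9 genes lay between -0.20 for Pcdh9 (SE 0.28) and 0.40 for Ttn (SE 0.22), and the lowest adjusted p in edgeR was 0.709. Fgf14 had 0.17 (SE 0.10) and Malat1 0.076 (SE 0.091).

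During treatment the spermatocyte-like cells were also without a call. Of 8 genes tested in T against UC, 0 were called by edgeR or DESeq2, where 0.227% of 12359 genes were called higher and 0.437% lower, and 2475 genes had an unadjusted p under 0.05 with edgeR and 1969 with DESeq2. Log2 fold changes lay between -0.29 for Fgf14 (SE 0.083, adjusted p = 0.122 in edgeR) and 0.61 for Cnbd1 (SE 0.56). Malat1 had -0.040 (SE 0.13) and Neat1 0.062 (SE 0.17).

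In spermatid-like cells of T against UC all 10 genes were tested and 1, Schip1, was called lower, where 3.20% of 12905 genes were called higher and 13.3% lower. Schip1 was at 13.9, 10.5 and 9.14 CPM in T 1, T 2 and T 3 and at 35.0, 44.6 and 41.8 CPM in UC 1, UC 2 and UC 3. The groups did not overlap, and the log2 fold change was -2.03 (SE 0.17, adjusted p = 2.05e-07 in edgeR). VC-T 1 had 13.4 CPM, as low as T, and VC-T 2 and VC-T 3 had 64.1 and 37.7 CPM. Against VC-T 2 and VC-T 3 the log2 fold change was -2.41 (adjusted p = 3.05e-05 in edgeR), and against all 3 VC-T libraries it was -2.02 and was not called (adjusted p = 0.120 in edgeR). In the first of these comparisons 573 of 14180 genes were called higher and 2419 lower. In the second 0 of 13574 genes were called, while 3670 had an unadjusted p under 0.05 with edgeR.

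Numbers of cells by cluster moved with the Schip1 difference. Cluster 18, where Schip1 was at 69.3 CPM, had 44, 6 and 4 cells in the T libraries and 130, 168 and 200 cells in the UC libraries, and 11 cells in VC-T 1. Cluster 19 had 16 cells in T and 80 in UC. Without clusters 18 and 19 the log2 fold change of Schip1 was -0.22 (SE 0.20, adjusted p = 0.481 in edgeR), and within cluster 2 alone it was -0.27 (SE 0.31, adjusted p = 0.605 in edgeR). In T 1, the T library with more than 10 cells of cluster 18, Schip1 was at 17.0 CPM there, against 61.6, 81.9 and 71.1 CPM in UC. Fewer cells of a stage and less Schip1 per cell were not separated by a test in cluster 18. Leaving out the 3 low-UMI clusters, a choice made after seeing the data, gave -2.26 (SE 0.21, adjusted p = 4.08e-07 in edgeR).

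Other genes moved the opposite way by less than the fold required. Shifts were widespread in spermatid-like cells of T against UC, where 7147 of 12905 genes had an unadjusted p under 0.05 with edgeR and 5776 with DESeq2. Chst9 was at 15.7, 17.3 and 18.6 CPM in T and 9.84, 5.71 and 8.32 CPM in UC, a log2 fold change of 0.87 (SE 0.20, adjusted p = 0.00209 in edgeR). Zfp804b was at 132, 158 and 182 CPM in T and 76.2, 68.2 and 110 CPM in UC, a change of 0.63 (SE 0.14, adjusted p = 0.00217 in edgeR). For both genes every T library was above every UC library, but VC-T libraries of the same age overlapped T. Zfp804b was at 142, 130 and 60.0 CPM and Chst9 at 14.3, 16.5 and 4.83 CPM in VC-T 1, VC-T 2 and VC-T 3. Cnbd1 was at 153, 167 and 196 CPM in T and 87.1, 78.0 and 126 CPM in UC, a change of 0.56 (SE 0.13, adjusted p = 0.00298 in edgeR), also without overlap. VC-T 1 and VC-T 2 had Cnbd1 at 153 and 175 CPM, within or near the range of T, and VC-T 3 had 63.7 CPM. Malat1 was lower by a small amount, with -0.25 (SE 0.089, adjusted p = 0.0328 in edgeR) and libraries that overlapped. Fgf14, Pcdh9, Ttn, Agbl1 and Neat1 had log2 fold changes between -0.13 and 0.24 and adjusted p-values of 0.0978 or more in edgeR.

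**Figure D5:**
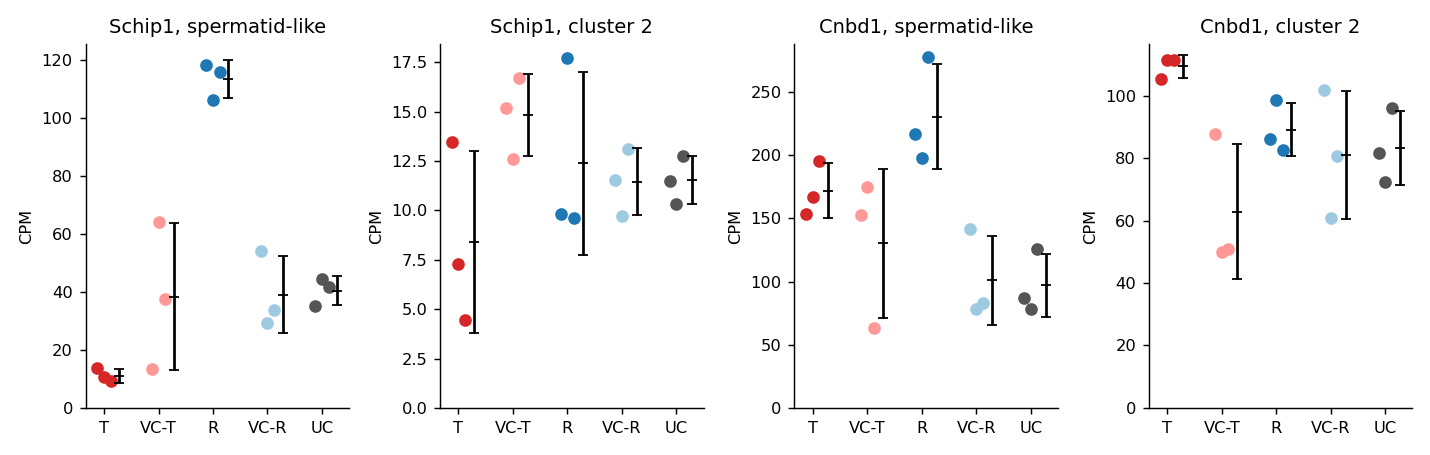
CPM of Schip1 and Cnbd1 in all spermatid-like cells and in the spermatid-like cluster 2 alone, by group; points are libraries and the bar beside them is the mean ± SD of 3 libraries. Schip1 in T (9.14 to 13.9 CPM) lies below UC (35.0 to 44.6 CPM) over all spermatid-like cells, beside VC-T 1 at 13.4 CPM, and the T and UC points of cluster 2 overlap.

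Among the lists, the 36 other very long genes tested in spermatid-like cells of T against UC had 2 called lower, Lsamp (-1.52, SE 0.17) and Fhit (-1.10, SE 0.15), and 0 called higher, with a median of -0.071. Lsamp is also among the leading genes of cluster 19. Of 11 family relatives tested 1 was called lower, the protocadherin Pcdh17 (-1.42, SE 0.34). The cytoplasmic spermatid transcripts had 2 of 12 called lower, Spata3 (-2.15) and Gapdhs (-1.28), and a median of -0.45. None of the 17 speckle and paraspeckle proteins was called, and their median was 0.47, where all genes had 0.042.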

How the data were processed

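Single-cell suspensions of testis were profiled with the 10x Genomics 3′ kit, 1 library per mouse. The authors deposited whole-number UMI counts for each gene in each barcode, made with Cell Ranger on mm10: the labels name version 3.0.0 and the matrix headers 7.0.0, and neither states whether introns were counted. The genes and lists were chosen with earlier results of these data known.

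Barcodes needed 500 genes, 1000 UMIs and a mitochondrial share below 30%, and the 5.4% with the highest doublet score (Scrublet in scanpy 1.11.5) were removed per library. Counts were scaled to 10000 UMIs, and 2000 variable genes, 30 principal components, 20 neighbours and Leiden resolution 1.2 gave the clusters, named from markers. SoupX correction, which the study applied, was not used here. Gene spans are from GENCODE.

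UMI sums per library and class (at least 10 cells) were tested with edgeR 4.0.16 (TMM, quasi-likelihood, filter on low counts, Benjamini-Hochberg adjustment over all genes tested). DESeq2 1.42.0, no filter, other controls, UMI bins, mitochondrial and doublet settings, a replicate block and leaving out each library were alternatives. Shares were compared by exact permutation tests. The script was tested on simulated data. Genes named outside the members were those of the lists that were called, the leading genes of the low-UMI clusters and the most correlated genes, of which 1 is not reported here. The labels give no batch.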

Additional observations from a re-analysis of the deposited data

How the results depend on the processing

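For T against UC in spermatid-like cells the count of 1 gene called, Schip1, became 0 with all 3 VC-T libraries as controls, 0 in cluster 2 alone and 0 without clusters 18 and 19; the choices by cluster, that without the low-UMI clusters included, and the subset without R and VC-T 1 were made after seeing the data. Over all genes, the 3 choices that gave 0 called 0 of 13574, 100 of 8625 and 164 of 11618 higher, and 0, 119 and 246 lower. Leaving out each library gave 1 to 2 genes, 2 without UC 1, where Chst9 joined Schip1. For shallow against deeper spermatocyte-like cells the count of 2 became 0 with 2000 to under 4000 UMIs as the shallow cells, 0 within clusters with or without cluster 23 and 0 without the 3 R libraries and VC-T 1, while leaving out each library gave 2 throughout. Of the 10 genes 6 passed the filter originally and 5, 2, 2 and 3 in the comparisons that gave 0. Over all genes those comparisons called 116 of 10264, 371 of 6322, 321 of 6101 and 739 of 8214 higher, and 1, 15, 10 and 50 lower. The share of spermatocyte-like cells under 2000 UMIs in T less that of controls was -3.92 percentage points and -9.79 to 1.74 when a library was left out, above 0 only without T 2; that of R was 2.15 and 0.0805 to 5.72.

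Changes of sign touched only genes that were not called. In T against UC, Fgf14 (-0.13) was 0.17 in cells from 4000 to under 8000 UMIs and 0.23 without the low-UMI clusters, Pcdh9 (0.20) was -0.061, -0.067 and -0.029 against VC-T 2 and VC-T 3, against all VC-T and without clusters 18 and 19, and Ttn (0.24) was -0.37, -0.26 and -0.092 there. Malat1 (-0.25) was 0.042 in cluster 2, and Neat1 (0.14) was -0.47 and -0.23 against the same controls, -0.062 without the low-UMI clusters and -0.20 to 0.44 when a library was left out. By depth, Fgf14 (0.11) was -0.090 without a filter, -0.27 with the deeper shallow cells, -0.059 without R and VC-T 1 and -0.031 to 0.19 when a library was left out, and Malat1 (-0.24) was 0.014 with the deeper shallow cells and 0.45 and 0.48 within clusters with and without cluster 23. The causes were not tested.

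With the replicate number as a block, T against UC gave 0 genes in spermatocyte-like and 1 in spermatid-like cells. R against UC, tested only in spermatocyte-like cells, gave 0. Schip1 had -2.06, and no call of the 10 genes changed. Same-numbered samples correlated at 0.654, 0.400 and 0.0902 for T and UC in spermatocyte-like cells and -0.0408, -0.0785 and 0.161 in spermatid-like cells. For R and UC in spermatocyte-like cells they correlated at -0.414, -0.512 and 0.171, so the numbers were not taken as pairs. Over all genes, T against UC in spermatocyte-like cells gave 28 higher and 54 lower in edgeR, 50 and 328 in DESeq2 and 66 and 459 with the block, and spermatid-like cells gave 413 higher in edgeR and 267 in DESeq2. Libraries of 9673587 to 28341295 UMIs outside R limit the low levels, such as those of Chst9 and Neat1, to few UMIs.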
